A study of Homo sapiens with 18 samples.

Results

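The transcripts described here are those of 10 genes of the Eph receptor and ephrin family, the receptors EPHA1, EPHA2, EPHA4, EPHA7, EPHB1, EPHB2, EPHB3 and EPHB4 and the ligands EFNB1 and EFNB2, out of 57500 genes counted in each library. They were selected on their read counts over the 6 groups in an earlier reading of these libraries, then taken by symbol, and each symbol matched 1 gene. RNA was sequenced from THP-1, a human monocytic leukaemia cell line, carrying a lentiviral short hairpin RNA without a target (shNT), against NR4A2 (shNR4A2) or against NR4A3 (shNR4A3). Cells were unstimulated (control) or had received LPS at 2.5 μg/ml for 2 h, with 3 libraries in each of 6 groups and 18 in all, and the study describes the replicates as independent experiments. All 3 lines, shNT included, were transduced with lentivirus and kept under puromycin, and each knockdown was represented by a single hairpin line, so an effect of the hairpin and a difference between lines cannot be told apart. Between 16171161 and 23929138 reads per library were assigned to genes.

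Eph receptors are the largest family of receptor tyrosine kinases, and their ligands, the ephrins, are themselves held on the surface of the neighbouring cell. A-type ephrins are attached by a lipid anchor and B-type ephrins cross the membrane, so that contact between cells can send a forward signal through the receptor and a reverse signal through an ephrin-B. The family is best known for repulsion and guidance in the developing nervous system, for boundaries between tissues and for vessel formation, and in blood cells for adhesion and migration.

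Each hairpin's target was reduced in its line. NR4A2 with LPS measured 62.7 ± 11.7 TPM (counts per length, scaled to the same sum in each library, given as mean ± SD, n = 3) in shNT cells and 21.2 ± 6.78 TPM in shNR4A2 cells, and NR4A3 measured 31.7 ± 0.708 TPM in shNT cells and 17.3 ± 0.807 TPM in shNR4A3 cells. TNF, a cytokine induced by LPS, rose in shNT cells from 65.3 ± 11.8 to 2118 ± 136 TPM with LPS. Monocytic markers were abundant, with a sum over 9 genes between 998 and 2293 TPM per library and SPI1, a myeloid transcription factor, the highest on average. Markers of other cells were low. The highest sum in any library was 1.04 TPM for 3 T cell genes (CD2 was at 0 in 12 libraries), 0.955 TPM for 4 epithelial genes, 1.08 TPM for 4 neural genes (SOX2 was at 0 in 16 libraries) and 1.16 TPM for 3 fibroblast genes. MS4A1, a B cell marker, was at 0 in 16 libraries. The 4 endothelial genes summed to between 0.627 and 3.48 TPM, and the most abundant, KDR, was 1.81 ± 0.797 TPM in unstimulated shNT cells, 0.367 ± 0.164 TPM in shNR4A2 and 0.277 ± 0.0191 TPM in shNR4A3 cells (SD, n = 3 each). The endothelial genes did not all go that way. Without LPS 3 were tested in shNR4A2 cells against shNT and 1 was called, lower, but their median log2 fold change was 0.60. In shNR4A3 cells 2 were tested and 1 was called, lower, with a median of -1.16. LYZ, a monocytic marker, was 192 ± 13.6 TPM in unstimulated shNT cells, 615 ± 134 TPM in shNR4A2 and 883 ± 167 TPM in shNR4A3 cells. Of the 9 monocytic markers tested without LPS, 3 were called higher in shNR4A2 cells and 5 in shNR4A3 cells, and 0 lower. Over all genes tested, 6.45% and 7.23% were called. The median log2 fold change of the 9 markers was 0.26 and 0.80. The part of these line differences in the results below was not tested, and fewer cells of a kind and less RNA per cell cannot be told apart in bulk RNA.

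The sequences before the start sites of EPHA7, EPHB1, EFNB1 and EFNB2 are shown because EPHA7 and EPHB1 were the receptors called against shNT cells both with and without LPS, and EFNB1 and EFNB2 are the 2 ligands. Each is the 250 bases upstream of a RefSeq start site on GRCh38.p14, written 5′ to 3′ on the strand of the gene, with the GC box GGGCGG or its reverse complement CCGCCC in capitals.
EPHA7 (chr6:93419560-93419809, minus strand): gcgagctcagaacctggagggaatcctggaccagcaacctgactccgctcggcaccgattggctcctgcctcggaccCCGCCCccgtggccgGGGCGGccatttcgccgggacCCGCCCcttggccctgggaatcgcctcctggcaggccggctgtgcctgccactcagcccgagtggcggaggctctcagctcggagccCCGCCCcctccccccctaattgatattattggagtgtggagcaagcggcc
EPHB1 (chr3:134795010-134795259, plus strand): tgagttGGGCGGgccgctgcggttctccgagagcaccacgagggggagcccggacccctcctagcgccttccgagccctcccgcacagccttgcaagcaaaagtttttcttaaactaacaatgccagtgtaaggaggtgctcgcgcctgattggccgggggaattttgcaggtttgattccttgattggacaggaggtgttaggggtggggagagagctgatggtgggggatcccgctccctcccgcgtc
EFNB1 (chrX:68828771-68829020, plus strand): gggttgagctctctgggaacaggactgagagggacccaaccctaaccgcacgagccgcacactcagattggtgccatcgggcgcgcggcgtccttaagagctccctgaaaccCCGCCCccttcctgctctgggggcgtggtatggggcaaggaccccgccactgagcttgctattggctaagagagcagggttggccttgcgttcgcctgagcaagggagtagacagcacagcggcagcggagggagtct
EFNB2 (chr13:106535663-106535912, minus strand): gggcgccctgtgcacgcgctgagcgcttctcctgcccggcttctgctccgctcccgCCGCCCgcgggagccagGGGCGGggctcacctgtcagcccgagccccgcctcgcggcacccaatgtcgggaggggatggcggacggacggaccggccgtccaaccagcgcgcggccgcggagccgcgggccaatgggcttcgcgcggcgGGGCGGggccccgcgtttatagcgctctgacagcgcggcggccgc
The EPHA7, EFNB1 and EFNB2 start sites lay 12, 24 and 548 bases from the outermost exon base in the deposited annotation, whereas the EPHB1 start site lay 197459 bases inside the deposited gene. RefSeq gave 14 windows of 300 bases for the 10 genes, 250 bases before and 50 after each start. Some windows of EPHB2 and of EPHA7 overlapped each other, so the 14 are not all separate promoters. All 14 contained a GC box, as did 45.0% of 35116 such windows over all genes. The NR4A monomer element NBRE (AAAGGTCA, either strand) was found in none of the 14 windows and in 1.22% of all windows, and the half-site AGGTCA, which the NBRE contains, in none of the 14 and in 13.8% of all. The NF-kappaB consensus was matched in 1 of the 14, that of EPHB1, and in 11.3% of all windows. The median GC content was 66.3% in the 14 windows and 58.7% in all windows.

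The 10 genes were present in unstimulated shNT cells at low to moderate levels, led by a ligand and a receptor of the B class. Among them EFNB1, a transmembrane ephrin, was highest at 22.8 ± 0.412 TPM, followed by the receptor EPHB1 at 15.7 ± 0.749 TPM and EPHA1 at 5.51 ± 0.861 TPM (SD, n = 3 each). EPHA7 at 3.22 ± 0.573 TPM and EPHB4 at 2.43 ± 0.276 TPM had overlapping ranges, and EPHB3 at 1.91 ± 0.182 TPM, EFNB2 at 1.02 ± 0.331 TPM, EPHA2 at 0.485 ± 0.146 TPM and EPHB2 at 0.165 ± 0.0641 TPM followed in that order without overlap between neighbours. EPHA4 (ENSG00000116106, chr2:221418027-221574202, minus strand) was at the limit of detection, with 0 to 3 counts in each of the 18 libraries, and did not pass edgeR's filter on low counts in any comparison. The other 9 genes passed it in all of them. Positions are those of the deposited GRCh38 annotation, from the first to the last exon base. In shNR4A3 cells the order was another, with EFNB1 followed by EPHA7 at 9.22 ± 0.932 TPM and then EPHB1 at 5.88 ± 1.21 TPM, which overlapped EPHA1 at 4.52 ± 0.531 TPM. With LPS EPHB1 and EFNB1 overlapped in shNT cells, at 13.2 ± 0.635 and 11.1 ± 1.27 TPM (SD, n = 3 each), and also in shNR4A2 cells.

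**Figure D1:**
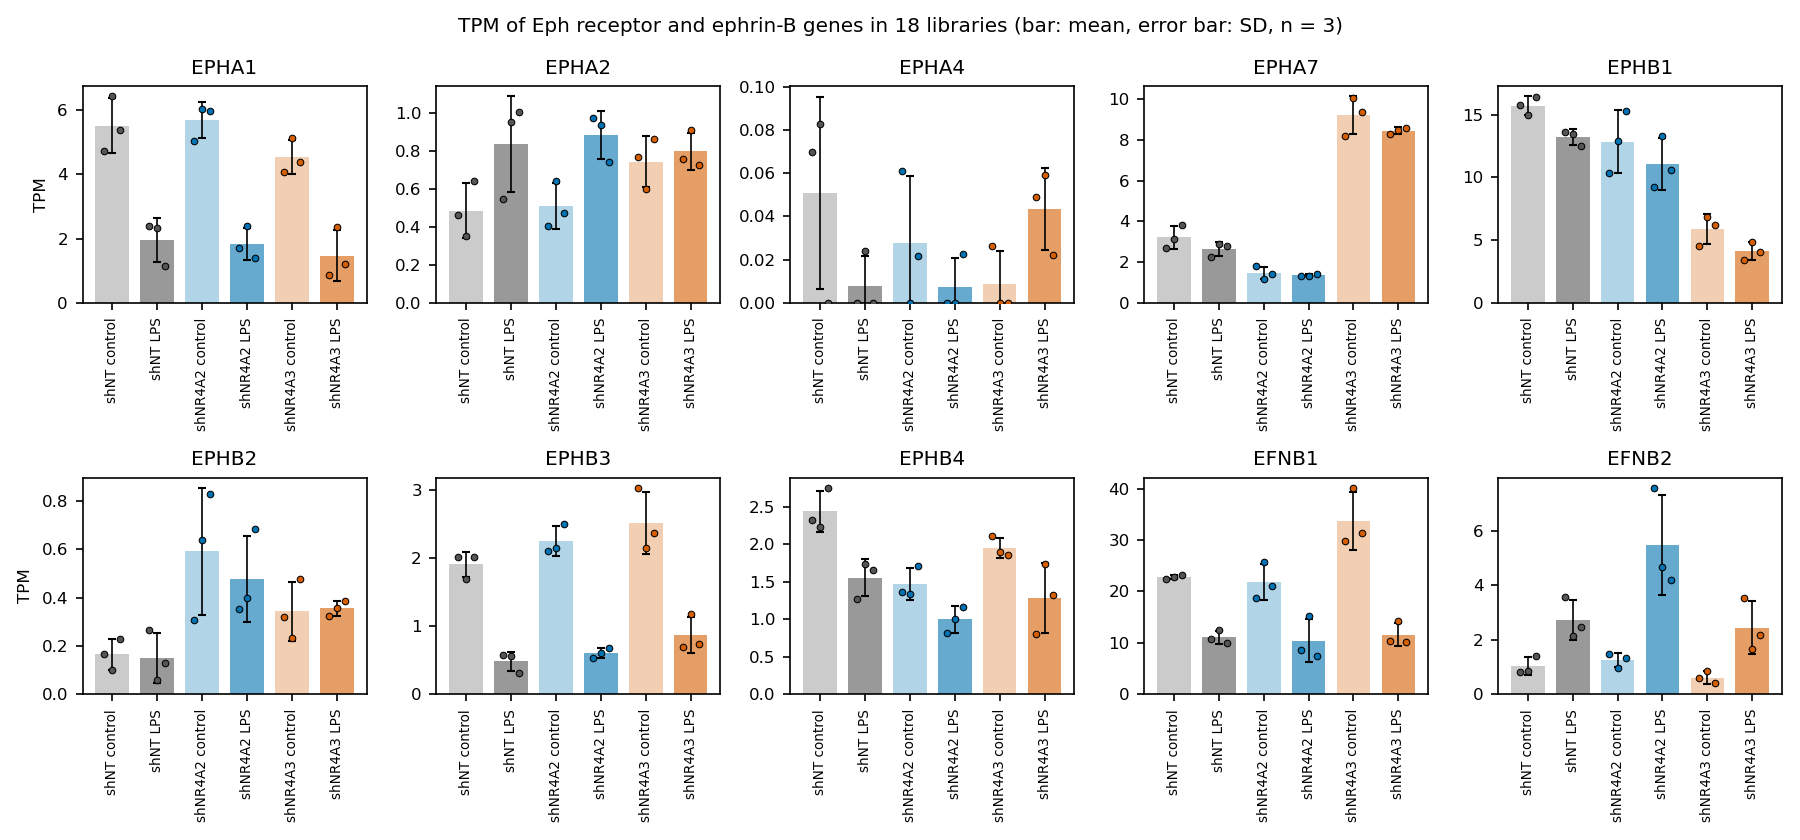
TPM (vertical axes, linear and starting at 0) of the 10 genes in the 6 groups, with a point for each library, a bar for the mean of 3 libraries and an error bar for the SD. EPHA7 stands highest in shNR4A3 cells with and without LPS, EPHB1 lowest there, and EFNB2 rises and EPHA1, EPHB3 and EFNB1 fall with LPS in every line.

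The first question was whether depletion of either NR4A receptor was accompanied by different levels of these transcripts. EPHA7, an A-class receptor, was lower in shNR4A2 cells and higher in shNR4A3 cells than in shNT cells, and EPHB1 was lower in shNR4A3 cells, each with and without LPS. Without LPS, EFNB1 was higher in shNR4A3 cells. The calls of EPHB2 and EPHB4 in shNR4A2 cells without LPS were lost when single libraries were left out. So was the call of EPHA7 in shNR4A2 cells with LPS, for some of the libraries. The 10 genes were chosen with results of these libraries known, so the calls (adjusted p, written Padj, under 0.05, edgeR quasi-likelihood test with Benjamini-Hochberg adjustment over all genes tested) describe these genes and are not independent evidence. In shNR4A2 cells 3 of the 9 tested genes were called without LPS, where 6.45% of all 15800 genes tested were called. They were EPHA7, EPHB2, which is scarce in shNT cells, and EPHB4, close to the limit. EPHB2's passing of the filter on low counts leaned on the shNR4A2 libraries, so its call adds no support to that count. With LPS 1 of the 9 was called in shNR4A2 cells, where 6.96% of 15590 genes were. None of the 9 passed an additional limit of 2-fold there, which 2.49% of genes did. In shNR4A3 cells 3 of 9 were called without LPS, against 7.23% of 15322 genes, and 2 with LPS, against 6.45% of 15578 genes. Both lines were compared with the same shNT libraries. With the replicate number as a block in the fit, 23.6% and 28.1% of all genes were called in shNR4A2 cells without and with LPS and 14.8% and 21.8% in shNR4A3 cells, and of the 9 genes 4 and 3 and again 4 and 3. The median log2 fold change of the 9 genes was 0.05 and -0.04 in shNR4A2 cells without and with LPS and 0.45 and -0.02 in shNR4A3 cells, and that of all genes tested lay between -0.0085 and -0.0010.

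EPHA7 (ENSG00000135333, chr6:93240020-93419547, minus strand) lay furthest apart between the lines. In the 3 unstimulated shNT libraries it measured 2.69, 3.16 and 3.83 TPM, in the shNR4A2 libraries 1.80, 1.18 and 1.41 TPM and in the shNR4A3 libraries 8.21, 10.0 and 9.40 TPM. The 3 groups did not overlap, with every shNR4A2 library below and every shNR4A3 library above every shNT library. The log2 fold change from shNT was -1.13 in shNR4A2 cells (SE 0.21, Padj = 0.00774) and 1.57 in shNR4A3 cells (SE 0.15, Padj = 2.51e-05). With LPS, EPHA7 measured 2.27, 2.90 and 2.80 TPM in shNT cells, 1.33, 1.34 and 1.40 TPM in shNR4A2 and 8.28, 8.51 and 8.60 TPM in shNR4A3 cells, and the groups were again apart. The log2 fold change was -0.91 in shNR4A2 cells (SE 0.18, Padj = 0.0202) and 1.73 in shNR4A3 cells (SE 0.13, Padj = 0.000128). The call in shNR4A2 cells with LPS was lost without shNT LPS replicate 2 or 3 or shNR4A2 LPS replicate 1 (Padj = 0.0886, 0.0854 and 0.0565).

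EPHB1 (ENSG00000154928, chr3:134597801-135260467, plus strand), a receptor for B-type ephrins and the most abundant receptor in shNT cells, was low in shNR4A3 cells. Unstimulated shNT libraries had 15.8, 14.9 and 16.4 TPM of EPHB1 and shNR4A3 libraries 4.53, 6.86 and 6.24 TPM. With LPS the values were 13.7, 13.4 and 12.5 TPM in shNT cells and 3.43, 4.87 and 4.04 TPM in shNR4A3 cells. In neither state did the groups overlap, and the log2 fold changes were -1.38 without LPS (SE 0.13, Padj = 3.46e-05) and -1.63 with LPS (SE 0.12, Padj = 0.000121). In shNR4A2 cells EPHB1 lay at 10.3, 12.9 and 15.3 TPM without LPS, with 1 library inside the shNT range, and at 9.21, 13.3 and 10.6 TPM with LPS. The log2 fold change of -0.29 without LPS was not called (SE 0.14, Padj = 0.257) and passed narrowly with the replicate number as a block (Padj = 0.0490), and that of -0.21 with LPS was not called either (SE 0.12, Padj = 0.330).

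EPHB2 (ENSG00000133216, chr1:22710839-22921500, plus strand) and EPHB4 (ENSG00000196411, chr7:100802565-100827521, minus strand), receptors of the same class, lay in opposite directions from shNT in shNR4A2 cells. EPHB2 was scarce, with 12, 6 and 15 counts in the unstimulated shNT libraries (0.168, 0.0998 and 0.228 TPM), 25, 42 and 63 counts in shNR4A2 libraries (0.307, 0.640 and 0.828 TPM) and 20, 13 and 30 counts in shNR4A3 libraries (0.318, 0.235 and 0.477 TPM). Each library of either knockdown line stood above all 3 shNT libraries. The log2 fold change was 1.81 in shNR4A2 cells (SE 0.42, Padj = 0.0244) and 1.10 in shNR4A3 cells (SE 0.39, Padj = 0.120, and 0.0491 with the replicate block). The shNR4A2 call was lost without shNT control replicate 1 or 2 or shNR4A2 control replicate 2 or 3 (Padj = 0.0681, 0.0790, 0.0529 and 0.0770). With LPS, EPHB2 measured 0.265, 0.0576 and 0.129 TPM in shNT cells, 0.355, 0.400 and 0.683 TPM in shNR4A2 and 0.325, 0.356 and 0.388 TPM in shNR4A3 cells, so that the order of the groups was as without LPS. Neither log2 fold change was called, at 1.72 (SE 0.49, Padj = 0.0675) and 1.29 (SE 0.45, Padj = 0.120), and both passed with the replicate block (Padj = 0.00026 and 0.0343). Without shNT LPS replicate 1 the log2 fold change was 2.38 in shNR4A2 cells and was not called (Padj = 0.0506), and 1.95 in shNR4A3 cells, where it was called (Padj = 0.0471). All knockdown libraries but only 2 shNT libraries without LPS and 1 with LPS reached the filter's limit for EPHB2, so that its passing leaned on the group where it was higher, and no support is drawn from its call. Without a filter it was called in shNR4A2 cells without LPS as well (Padj = 2.57e-05). That fit used the same counts and adds no support.

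EPHB4, known from venous endothelium as the receptor of ephrin-B2, had 2.32, 2.23 and 2.75 TPM in unstimulated shNT libraries and 1.36, 1.33 and 1.71 TPM in shNR4A2 libraries. These groups did not overlap, and the log2 fold change was -0.72 (SE 0.19, Padj = 0.0492). The call was at the limit, and it was lost with DESeq2 (Padj = 0.0707) and with any of the 6 libraries left out (Padj between 0.0544 and 0.172). With LPS it was 1.27, 1.74 and 1.65 TPM in shNT cells and 0.816, 1.01 and 1.17 TPM in shNR4A2 cells, a log2 fold change of -0.58 that was not called (SE 0.24, Padj = 0.185). In shNR4A3 cells EPHB4 was not called in either state.

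Of the ligands, EFNB1 (ENSG00000090776, chrX:68828997-68842147, plus strand) was higher in unstimulated shNR4A3 cells, with 29.8, 40.1 and 31.3 TPM against 22.4, 22.8 and 23.2 TPM in shNT cells. The groups did not overlap, and the log2 fold change was 0.61 (SE 0.12, Padj = 0.0062). With LPS the shNR4A3 libraries, at 10.4, 14.2 and 10.2 TPM, overlapped the shNT libraries, at 10.7, 12.5 and 10.0 TPM, and EFNB1 was not called (Padj = 0.667). EFNB2 (ENSG00000125266, chr13:106489731-106535114, minus strand), the other ephrin-B, was lower than EFNB1 in every library. With LPS it measured 3.55, 2.14 and 2.45 TPM in shNT cells and 7.56, 4.65 and 4.18 TPM in shNR4A2 cells, with no overlap and a ratio of mean TPM of 2.01. Its log2 fold change of 1.06 was not called (SE 0.29, Padj = 0.0630), while with the replicate block it was (Padj = 2.2e-06), as with DESeq2 (Padj = 0.0116) and without shNR4A2 LPS replicate 2 (log2 fold change 1.20, Padj = 0.0389). EFNB2 was not called in the other 3 comparisons with shNT cells, nor was EFNB1 in shNR4A2 cells. EPHA1, EPHA2 and EPHB3 were not called in any of the 4 comparisons of a knockdown line with shNT cells.

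**Figure D2:**
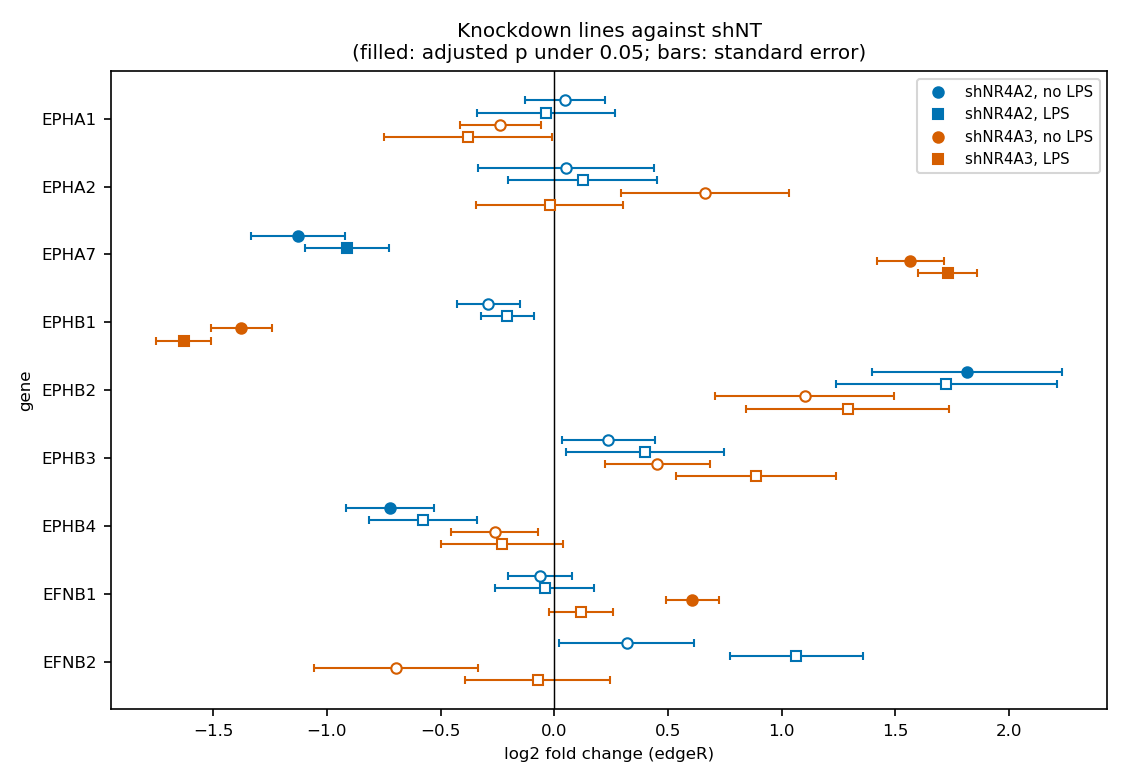
Log2 fold change (horizontal axis, edgeR) of 9 genes in shNR4A2 and shNR4A3 cells against shNT cells, with circles for cells without LPS, squares for cells with LPS, bars for the SE and filled symbols for an adjusted p under 0.05. EPHA7 lies left of zero in shNR4A2 cells (-1.13 and -0.91) and right of it in shNR4A3 cells (1.57 and 1.73).

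The 2 knockdown lines were also compared with each other. EPHA7 was lower in shNR4A2 than in shNR4A3 cells by a log2 of -2.69 without LPS (SE 0.18, Padj = 5.8e-06) and -2.64 with LPS (SE 0.13, Padj = 4.97e-05), and EPHB1 was higher by 1.09 (SE 0.18, Padj = 0.00419) and 1.42 (SE 0.15, Padj = 0.00292). Without LPS EFNB1 was lower in shNR4A2 cells by a log2 of -0.67 (SE 0.15, Padj = 0.0325), a call lost without shNR4A2 control replicate 1 or 3 or any shNR4A3 control library (Padj between 0.0651 and 0.111). These were 3 of the 9 genes without LPS, where 3.08% of 15584 genes were called, and 2 of 9 with LPS, where 2.33% of 15539 were. With the replicate block these shares were 11.6% and 23.6% of all genes, and 3 of the 9 genes in either state. EFNB2 was higher in shNR4A2 cells with LPS by a log2 of 1.14 that was not called (SE 0.35, Padj = 0.135), and was called with the replicate block (Padj = 0.00028) and with DESeq2 (Padj = 0.0284).

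The mixture of receptor transcripts differed between lines. Over all 14 Eph receptor genes, unstimulated cells had 39.8 ± 1.11 TPM in the shNT line, 37.6 ± 3.45 TPM in the shNR4A2 line and 31.9 ± 1.68 TPM in the shNR4A3 line (SD, n = 3 each). EPHB1 made up 39.5 ± 2.01% of that sum in shNT cells and 18.3 ± 3.10% in shNR4A3 cells. EPHA7 made up 8.08 ± 1.24% in shNT cells, 3.96 ± 1.22% in shNR4A2 cells and 28.8 ± 1.81% in shNR4A3 cells. EPHA7 was below EPHB1 in every shNT and shNR4A2 library, with a ratio of TPM between 0.0911 and 0.233, and above it in every shNR4A3 library, with a ratio between 1.46 and 2.42.

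**Figure D3:**
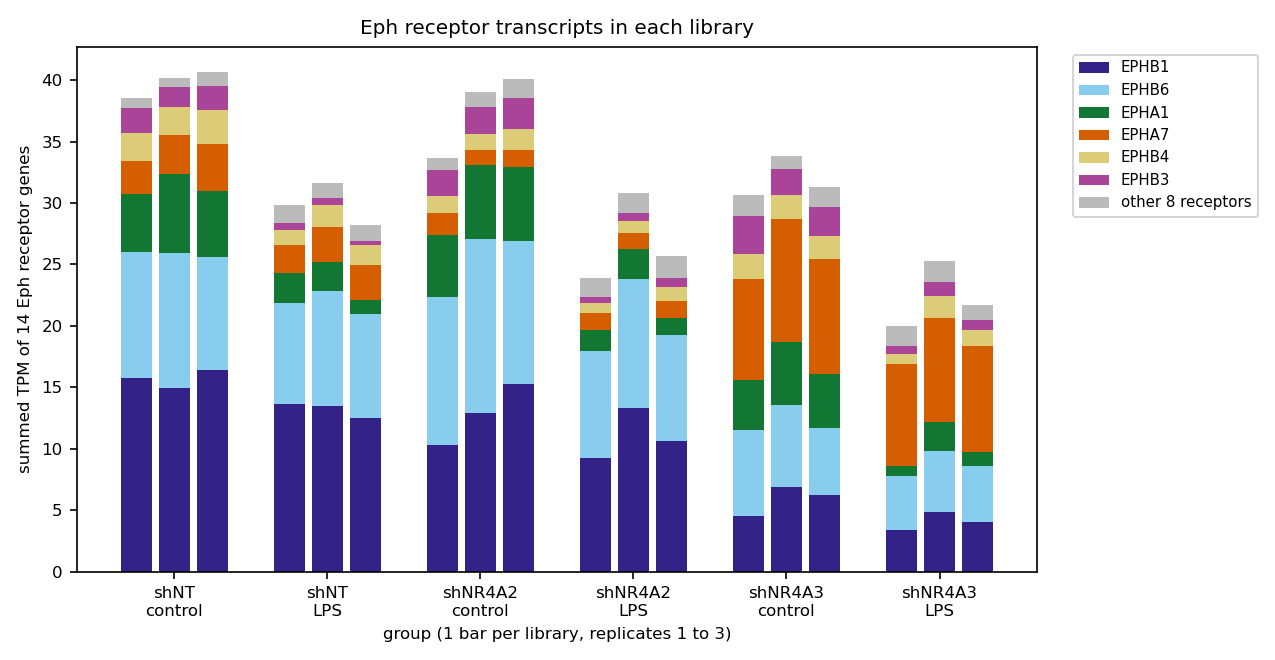
Summed TPM of 14 Eph receptor genes (vertical axis), 1 bar per library in 6 groups of 3, with colours for the 6 most abundant receptors and grey for the other 8. The EPHA7 block is 26.7% to 41.4% of the bar in the 6 shNR4A3 libraries and 3.01% to 9.96% in the other 12.

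The second question was how the family answered LPS. In every line EFNB2 rose, and EFNB1 and the receptors EPHA1 and EPHB3 fell. The count of called genes was 4 of 9 in shNT cells, where 24.9% of 15711 genes were called, 5 of 9 in shNR4A2 cells, where 19.3% of 15772 were, and 4 of 9 in shNR4A3 cells, where 28.1% of 15342 were. With the replicate block 30.1% of genes were called in shNR4A2 cells and 39.4% in shNR4A3 cells, with the same counts of 5 and 4 of the 9. These counts include EPHB3 in shNT cells, EPHA2 in shNR4A2 cells and EFNB2 in shNR4A3 cells. There each gene's passing of the filter on low counts leaned on the group where it was higher. The median log2 fold change of the 9 genes was -0.05, -0.01 and -0.29 in the 3 lines, and that of all genes tested was -0.013, -0.016 and -0.011. TPM was lower with LPS for genes in general, with a median log2 ratio over the genes tested of -0.23 in shNT cells, -0.28 in shNR4A2 cells and -0.24 in shNR4A3 cells, whereas after TMM normalization this median was -0.027, -0.028 and -0.0044. Falls in TPM below are to be read against that shift, and the log2 fold changes do not contain it.

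EFNB2, a ligand of EPHB4 and other B-class receptors, went from 0.827, 0.840 and 1.41 TPM to 3.55, 2.14 and 2.45 TPM with LPS in shNT cells, a log2 fold change of 1.63 (SE 0.28, Padj = 0.000766). In shNR4A2 cells it went from 1.48, 0.983 and 1.33 TPM to 7.56, 4.65 and 4.18 TPM, a log2 fold change of 2.37 (SE 0.29, Padj = 9.84e-05). In shNR4A3 cells it went from 0.581, 0.862 and 0.402 TPM to 3.52, 1.65 and 2.18 TPM, a log2 fold change of 2.25 (SE 0.39, Padj = 0.00123). The control libraries of that line had 9 to 17 counts, so that EFNB2's passing of the filter leaned on the LPS libraries. No support is drawn from its call there. In each line all LPS libraries stood above all control libraries.

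EFNB1 moved the other way. It fell from between 22.4 and 23.2 TPM to between 10.0 and 12.5 TPM in shNT cells, a log2 fold change of -0.82 (SE 0.12, Padj = 0.000126). In shNR4A2 cells it fell from 18.7, 25.7 and 21.0 TPM to 8.66, 15.3 and 7.48 TPM, a log2 fold change of -0.81 (SE 0.22, Padj = 0.0218). That call was lost without shNR4A2 control replicate 2 or LPS replicate 1 or 3 (Padj = 0.104, 0.0849 and 0.0658). In shNR4A3 cells it fell from 29.8, 40.1 and 31.3 TPM to 10.4, 14.2 and 10.2 TPM, a log2 fold change of -1.32 (SE 0.14, Padj = 4.99e-05). The ratio of EFNB2 to EFNB1 TPM therefore rose from 0.0447 ± 0.0137 to 0.249 ± 0.0802 in shNT cells, from 0.0602 ± 0.0207 to 0.579 ± 0.285 in shNR4A2 cells and from 0.0179 ± 0.00453 to 0.223 ± 0.111 in shNR4A3 cells (SD, n = 3 each), without overlap of the groups in any line.

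The receptors EPHB3 (ENSG00000182580, chr3:184561784-184582409, plus strand) and EPHA1 (ENSG00000146904, chr7:143390289-143408892, minus strand) fell in every line. EPHB3, a receptor for B-type ephrins, went from 2.02, 1.70 and 2.01 TPM to 0.577, 0.557 and 0.319 TPM in shNT cells, a log2 fold change of -1.76 (SE 0.30, Padj = 0.000639). These LPS libraries had 9 to 15 counts, so that EPHB3's passing of the filter leaned on the control libraries. No support is drawn from its call in shNT cells. The fall was -1.61 in shNR4A2 cells (SE 0.27, Padj = 0.00115) and -1.33 in shNR4A3 cells (SE 0.29, Padj = 0.00489), where the LPS libraries had 0.535, 0.613 and 0.679 TPM and 0.693, 1.18 and 0.739 TPM. EPHA1, the first receptor of the family to be described, went from 4.71, 6.42 and 5.38 TPM to 2.39, 2.32 and 1.16 TPM in shNT cells, a log2 fold change of -1.28 (SE 0.24, Padj = 0.00137). It changed by -1.37 in shNR4A2 cells (SE 0.22, Padj = 0.000795) and by -1.43 in shNR4A3 cells (SE 0.29, Padj = 0.00341). For both receptors every LPS library lay below every control library of its line.

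EPHA2 (ENSG00000142627, chr1:16124337-16156087, minus strand), a receptor for A-type ephrins, rested on 7 to 26 counts per library. It went from 0.407, 0.642 and 0.475 TPM to 0.972, 0.935 and 0.740 TPM in shNR4A2 cells, a log2 fold change of 1.06 just under the limit (SE 0.35, Padj = 0.0498) that was lost with any of the 6 libraries left out (Padj between 0.0506 and 0.183) and with DESeq2 (Padj = 0.192). The control libraries had 11 to 14 counts in shNR4A2 cells and 7 to 14 in shNT cells, so that EPHA2's passing of the filter leaned on the LPS libraries. No support is drawn from its calls. In shNT cells the log2 fold change was 0.99 (SE 0.38, Padj = 0.0723), called without shNT LPS replicate 1 (1.23, Padj = 0.0377). In shNR4A3 cells the LPS libraries, at 0.755, 0.910 and 0.725 TPM, overlapped the control libraries, at 0.767, 0.598 and 0.862 TPM. EPHA7, EPHB1, EPHB2 and EPHB4 were not called with LPS in any line.

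**Figure D4:**
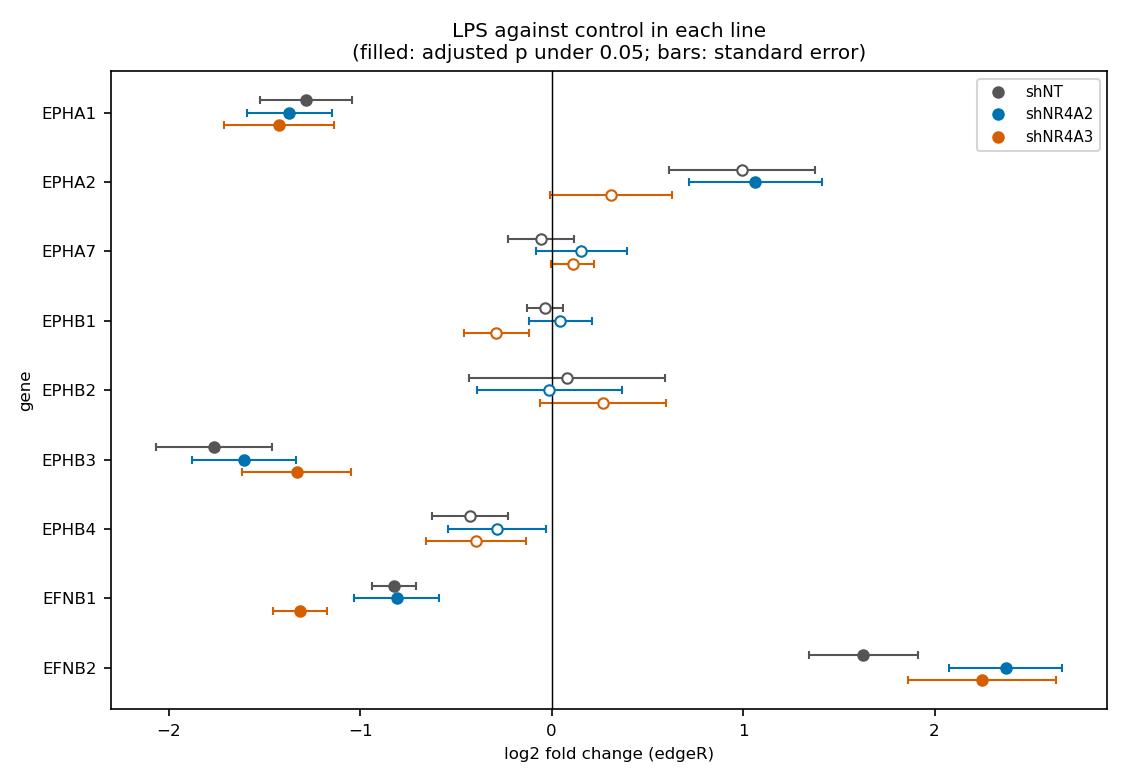
Log2 fold change with LPS (horizontal axis, edgeR) of 9 genes in shNT, shNR4A2 and shNR4A3 cells, with bars for the SE and filled symbols for an adjusted p under 0.05. EFNB2 lies between 1.63 and 2.37, while EPHA1, EPHB3 and EFNB1 lie between -1.76 and -0.81.

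Whether the LPS response itself differed between lines was tested by the interaction of line and LPS. None of the 9 genes was called, and edgeR called 0 genes of 16674 for shNR4A2 against shNT, of 16428 for shNR4A3 against shNT and of 16447 for shNR4A2 against shNR4A3. At an unadjusted p under 0.05 there were 365, 824 and 396 genes, while DESeq2 called 2, 10 and 1 and edgeR with the replicate block 8, 22 and 0, none of them among the 9. Among the 9 genes EFNB1 had the lowest unadjusted p, its fall being greater in shNR4A3 than in shNT cells by a log2 of -0.49 (SE 0.18, edgeR Padj = 0.942). The rise of EFNB2 differed between shNR4A2 and shNT cells by 0.75 (SE 0.44, Padj = 1.0), so that the larger fold change in shNR4A2 cells was not shown to be a difference.

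The 12 other genes of the family were not part of the choice. EPHA3, EPHA5, EPHA6, EPHA8 and EFNB3 did not exceed 0.191 TPM in any library and EPHA10 did not exceed 0.470 TPM. EPHB6, a receptor without kinase activity, was well expressed, with 10.2, 11 and 9.14 TPM in unstimulated shNT cells, 12.1, 14.2 and 11.6 TPM in shNR4A2 and 6.96, 6.71 and 5.46 TPM in shNR4A3 cells. Like EPHB1 it was lower in shNR4A3 than in shNT cells, by -0.62 on the log2 scale without LPS (SE 0.15, Padj = 0.0253) and -0.87 with LPS (SE 0.12, Padj = 0.00311), and in neither state was it called in shNR4A2 cells.

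EFNA1, an A-type ephrin known as a gene induced by inflammatory cytokines, was near 0 without LPS. It had 0 to 5 counts in each of the 9 control libraries and 33 to 148 counts in each of the 9 LPS libraries, and since it passed the filter only through the latter, no fold change or test of LPS is given for it. Among cells with LPS it measured 2.75, 2.34 and 2.85 TPM in shNT cells, 5.41, 4.01 and 7.0 TPM in shNR4A2 and 4.73, 5.61 and 9.76 TPM in shNR4A3 cells. Both knockdown lines stood above all shNT libraries, by a log2 of 1.11 (SE 0.27, Padj = 0.0417) and 1.40 (SE 0.29, Padj = 0.0216). EFNA4 was lower with LPS without overlap in every line, from 5.28, 4.45 and 5.27 TPM to 3.31, 1.85 and 2.93 TPM in shNT cells, from 8.41, 8.91 and 7.29 TPM to 3.20, 3.81 and 5.01 TPM in shNR4A2 cells and from 7.57, 6.45 and 7.57 TPM to 4.10, 2.47 and 2.65 TPM in shNR4A3 cells. The log2 fold change of -0.99 in shNR4A3 cells was called (SE 0.29, Padj = 0.0269), those of -0.66 in shNT cells (SE 0.30, Padj = 0.132) and -0.75 in shNR4A2 cells (SE 0.27, Padj = 0.0687) were not, and no difference between the lines was called. EFNA3 was at most 1.79 TPM, with mean TPM of 1.29, 1.18 and 1.09 in unstimulated shNT, shNR4A2 and shNR4A3 cells and 0.439, 0.382 and 0.318 with LPS. Its LPS and control libraries did not overlap in any line, but it did not pass the filter in the LPS comparisons and edgeR did not test this difference. EFNA2 was at most 1.54 TPM and passed the filter in no comparison, and EFNA5 was at most 0.735 TPM and was not called in any.

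Genes that carry Eph and ephrin signals were followed in 3 lists, 26 for forward signalling, 7 for reverse signalling through ephrin-B and 9 for shedding and receptor turnover. In shNR4A2 cells 2 rose and 1 fell of 38 tested without LPS, and 1 rose and 1 fell of 37 with LPS, shares near those over all genes (6.45% and 6.96%). PTK2, focal adhesion kinase, measured 1.71, 1.62 and 1.98 TPM in unstimulated shNT cells and 7.70, 6.77 and 6.97 TPM in shNR4A2 cells, a log2 fold change of 2.02 (SE 0.13, Padj = 9.83e-06), and was 2.12 higher with LPS (Padj = 0.000154). It was not called in shNR4A3 cells. NGEF, also called ephexin, an exchange factor bound by Eph receptors, was higher in shNR4A2 cells by a log2 of 0.74 (Padj = 0.0266) and lower in shNR4A3 cells by -0.68 (Padj = 0.0422), both without LPS. ABL2, a tyrosine kinase, was lower in shNR4A2 cells without LPS (log2 fold change -0.51, Padj = 0.0280), and the protease MMP9 was lower there with LPS (-1.19, Padj = 0.0426).

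In shNR4A3 cells 4 of 39 tested genes of the lists rose and 1 fell without LPS, and 2 rose and 1 fell of 38 with LPS, beside 7.23% and 6.45% of all genes called. The Src-family kinase FYN rose by a log2 of 0.80 (Padj = 0.00166) and 0.56 (Padj = 0.0211) and the adaptor CRK by 0.48 (Padj = 0.00918) and 0.35 (Padj = 0.0297) without and with LPS. The Src-family kinase LYN rose by 0.33 without LPS (Padj = 0.0328), and the remaining call among these 4 was PTPN13, a phosphatase that binds ephrin-B. It had 13, 5 and 1 counts in the shNT libraries and 22, 19 and 30 in the shNR4A3 libraries, and it passed the filter on low counts through the latter, so its call carries no weight. PICK1, a PDZ protein, was lower with LPS (-0.56, Padj = 0.0254). The median log2 fold change over the 3 lists lay between 0.0016 and 0.062 in the 4 comparisons with shNT.

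With LPS, 8 of 38 tested genes of the lists rose and 5 fell in shNT cells, 7 rose and 3 fell of 37 in shNR4A2 cells, and 9 rose and 5 fell of 38 in shNR4A3 cells, beside 24.9%, 19.3% and 28.1% of all genes called in the 3 lines. SDCBP, the PDZ protein syntenin that binds ephrin-B, went from 208, 179 and 220 TPM to 589, 532 and 603 TPM in shNT cells (log2 fold change 1.73, Padj = 5.81e-09) and rose by 1.81 and 1.88 in shNR4A2 and shNR4A3 cells (Padj = 4.06e-06 and 4.33e-06). RGS3, which acts in reverse signalling of ephrin-B, fell by 1.44, 1.10 and 1.44 on the log2 scale in the 3 lines (Padj = 6.5e-06, 0.00931 and 0.000462), from 3.07, 2.91 and 3.17 TPM to 0.960, 1.10 and 0.851 TPM in shNT cells. KALRN, an exchange factor, fell by 1.23 in shNT cells and 1.07 in shNR4A2 cells (Padj = 0.00887 and 0.0186). It is also among the 5 counted as lower in shNR4A3 cells, where no LPS library reached the filter's limit. LYN rose by 0.38, 0.46 and 0.73 (Padj = 0.00715, 0.0408 and 0.00897), and the adaptor NCK1 fell in shNT and shNR4A3 cells by 0.39 and 0.55 (Padj = 0.0139 and 0.00271). The kinase PAK1 fell in shNR4A3 cells by 0.30 (Padj = 0.0248), where ABL2 rose by 0.52 (Padj = 0.0286) and SRC by 0.42 (Padj = 0.0187). CRK rose in shNT cells by 0.37 (Padj = 0.00841), and the small GTPase CDC42 rose in shNT cells by 0.34 (Padj = 0.00506). In shNR4A2 cells CDC42 and the small GTPase RAC1 rose by 0.46 and 0.40 (Padj = 0.0228 and 0.0301). Among genes of shedding and turnover, the phosphatase PTPN1 and the sheddase ADAM17 rose in each line, by 0.98 and 0.58 in shNT cells, 0.95 and 0.92 in shNR4A2 cells and 1.20 and 0.94 in shNR4A3 cells, with Padj of at most 0.000666. The phosphatase PTPRO fell by 0.73, 0.75 and 0.63 in the 3 lines (Padj = 0.00043, 0.00411 and 0.0261), and the ubiquitin ligase CBL fell in shNT cells by 0.55 (Padj = 0.0110).

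EFNB2, EPHA7 and EPHB3 had the widest spans of the 6 group means of log2 CPM (3.20, 2.79 and 2.07), and the genes most like each were sought among 4559 genes whose means spanned at least a log2 of 1. Over these 6 means, Pearson's r with EFNB2 was 0.997 for the chemokine CXCL12, 0.994 for the transcript AC091182.1 and 0.993 for TNFSF18, a ligand of the TNF superfamily. CXCL12 had mean TPM of 0.458, 0.573 and 0.268 in unstimulated shNT, shNR4A2 and shNR4A3 cells and 2.37, 5.76 and 1.94 with LPS, highest in shNR4A2 cells with LPS as EFNB2 was. With EPHB3, r was 0.997 for TIGD2, 0.995 for MIDN and 0.995 for LINC00482. With EPHA7, r was 0.990 for AC107926.1, 0.972 for FAUP1 and 0.972 for SNX18P7, all with spans of at most 1.20 against 2.79 for EPHA7. These are descriptions of 6 points that share libraries and were picked as the highest of many.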

How the data were processed

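The 18 libraries were prepared with polyA selection and read from both ends. Per the labels, the authors trimmed with Trimmomatic 0.36, aligned with STAR 2.5.2b to GRCh38 and counted with featureCounts of Subread 1.5.2, and they deposited a whole-number count per Ensembl gene, not normalized, with merged exon lengths. Strand and multimapping settings are not given in the sources used here, so reads of overlapping or antisense genes cannot be told apart. Replicate numbers came from the sample titles.

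TPM was computed from counts and lengths, and 56898 genes received a GENCODE 29 symbol. A count of 1 per kilobase was worth 0.154 to 0.226 TPM. Groups were compared with edgeR 4.0.16 in R 4.3.3 (filterByExpr, TMM, quasi-likelihood F test), each comparison on its own libraries and adjusted over all genes tested, and called at an adjusted p under 0.05. The paper used DESeq2, run here as an alternative (1.42.0). The procedure was tested on simulated data. An exact permutation test (2-sided) of 3 against 3 libraries cannot go below p = 0.1, the value of any pair of groups that do not overlap. Alternatives were RLE factors, no filter, all 18 libraries in 1 fit, the replicate number as a block, a 2-fold limit and each library left out.

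The genes, lists and tests were chosen with earlier results of these data known. All 10 genes and the rest of the family were to be named, with up to 3 higher and 3 lower called genes of each signalling list per comparison and the 3 genes most like the 3 widest-ranging members. Libraries with the same number deviated together in most comparisons, with a correlation over 0.1 in every pair of libraries that shared a number. The exceptions were LPS in shNT cells and the interactions of either knockdown line with shNT. In all other comparisons the numbers met the criterion for pairs. The values reported are those without the block, as planned, and the blocked value is given where it changes a call. Promoter sequences were those of RefSeq, and all 10 genes matched. Some genes that these rules would name are not reported here.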

Additional observations from a re-analysis of the deposited data

How the results depend on the processing

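Of 41 log2 fold changes of single genes between groups, 0 changed direction under the alternatives, and 401 of 451 alternative values kept direction and call. With the replicate number as a block 6 were gained and 0 lost, and each is given beside its result. The block changed no other call of the 10 genes. For shNR4A2 against shNT with LPS the count of called genes was 1 and became 3 with DESeq2, without a filter on low counts, with all 18 libraries in 1 fit and with the replicate block, and 0 at a limit of 2-fold. EPHB2 and EFNB2 were the genes added. With a library left out it ran from 0 to 2, for shNR4A2 against shNT without LPS from 1 to 2 (3 with all libraries), and for LPS in shNR4A2 cells from 3 to 4 (5 with all libraries). The cause was not tested. No filter also called EPHB2 in shNR4A3 cells with LPS (Padj = 0.0325) and EFNB2 between the knockdown lines with LPS (Padj = 6.4e-05), and lost EPHA2 with LPS in shNR4A2 cells (Padj = 0.117). With all 18 libraries in 1 fit, EPHA2 with LPS in shNT cells was called (Padj = 0.0349). Under RLE factors no call of the 10 genes changed. Few counts per library limit EPHA2 and EPHB2, and EPHA4 could not be compared.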
